A study of Mus musculus with 5 samples.

Results

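The 9 genes described here (Rbp4, Lrat, Dhrs3, Aldh1a1, Aldh1a2, Aldh1a7, Crabp1, Crabp2 and Cyp26b1) carry, store, interconvert, bind or degrade retinoids. They were chosen by name, and all 9 were found among the 31053 genes counted in every library of this study of the juvenile mouse ovary. Single cells were prepared from whole ovaries of untreated C57BL6/J mice at 2, 3, 4, 5 and 6 weeks (wk) of age, with 1 library per age. The ovaries were digested with trypsin, live cells were sorted by exclusion of a dead-cell dye, and 3′ transcript ends were counted with unique molecular identifiers (UMIs) on a droplet platform. The number of animals behind a library is not given in the sources used here, and all groups share the strain and the absence of treatment. The libraries held 7779 to 11077 cells each (48163 in all), with a median of 9056 to 12424 UMIs per cell.

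Vitamin A travels in blood as retinol bound to Rbp4 and is stored as retinyl ester by Lrat. Retinol and retinal are interconverted, with Dhrs3 acting in the direction of retinol, and retinal is oxidised irreversibly to retinoic acid by the Aldh1a enzymes. Retinoic acid is carried in the cytosol by the Crabp proteins, acts through the nuclear receptors of the Rar and Rxr families, and is cleared by Cyp26 enzymes. In the ovary retinoic acid is best known for its part in the entry of fetal germ cells into meiosis, and theca and granulosa cells are known to handle retinoids after birth.

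Cells were grouped again from the counts, since no cell annotation was used, and each group was named from fixed marker lists. In the first clustering 18245 cells were granulosa-like (the somatic cells that surround the oocyte) and 13952 stromal-like. Another 4109 were smooth muscle-like and 1245 theca-like (the steroid-making outer layer of the follicle). There were 856 pericyte-like, 713 blood endothelial-like, 495 hematopoietic-like, 321 surface epithelial-like, 228 lymphatic endothelial-like and 93 rete ovarii-like cells, while 7906 were left unnamed. The theca-like class, and the late theca group below, may also hold interstitial gland cells. The study describes these as closely related to theca cells and counts them together. Granulosa-like cells were divided into primordial (814 cells), preantral (5446), antral (1857), remodeling (5424, a group of the late follicle wall named by markers such as Pik3ip1, Ghr and Nupr1) and mitotic (2990) groups. No granulosa cluster was named by the secondary follicle markers, so cells of primary and secondary follicles are held together as preantral. A cluster of 1322 cells scored highest for those markers (mean scaled level 0.648), but under 3 of them counted as detected and it was left unnamed. Mesenchymal cells were divided into early theca (1893), late theca (1467), Hoxd9+ (2331), Cxcl12+ (3883), Cd24a+ (2168), Col14a1+ (815), Tagln+ (3967) and mitotic (1158) groups. Here + follows a marker gene that gives a group its name. A further 1624 mesenchymal cells stayed unnamed. Of these 1280 lay in a cluster that scored highest for the Col11a1+ marker list (mean scaled level 1.14). The unnamed cells are left out of the orders of mesenchymal groups below.

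The grouping was made without the retinoid genes, 17 of which, 7 of the 9 among them, would otherwise have entered it. Levels are counts per 1000000 (CPM), the UMIs of a gene summed over the cells of a group and scaled to the UMIs of that group, with exact Poisson 95% intervals that cover counting error only. Ages could not be tested with 1 library each, and groups of cells were compared by their values in the same 5 libraries without a p-value, since the groups were drawn from these cells and an exact sign-flip test over 5 libraries cannot go below 0.0625. Groups of cells are called apart where their pooled CPM differ at least 2-fold and the libraries' values of the 2 groups do not overlap, for genes that reach 50 UMIs in the 2 together, and a looser count asks only for the same direction within every library. Levels of different genes are not compared with each other.

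Some features of the libraries touch the results below. The matrices of the 2, 3 and 4 wk libraries carry Cell Ranger version 3.1.0 in their headers and those of the 5 and 6 wk libraries version 6.0.1, so this version and age above 4 wk cannot be told apart. Pairs of libraries shared 18 to 35 cell barcodes (0.216 to 0.399% of the smaller library), and 2.08 to 5.01% of the cells of a library were called doublets. Oocytes were nearly absent: 19 cells held UMIs of at least 3 of 5 germ cell markers, among them 12 granulosa-like and 4 stromal-like cells. A cluster of 2337 dividing granulosa-like cells would be led by germ cell genes if genes found in few of its cells were counted, and the granulosa results are given below without it where it matters.

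Aldh1a1 and Aldh1a7 are neighbours and close paralogs, and their promoters are shown because these genes shared their highest group of cells. In GENCODE M21 on mm10 Aldh1a1 is a protein-coding gene on the plus strand at chr19:20492715-20643465, Aldh1a7 is one on the minus strand at chr19:20692953-20727562, and 49487 bases lie between them. The 250 bases before the RefSeq start of each gene (GRCm38) are printed 5′ to 3′, with the longest run shared by both in capitals. For Aldh1a1 this is chr19:20601718-20601967, plus strand, the window before the downstream of 2 RefSeq starts, which lies in an intron of the longest GENCODE transcript and reaches the first exon of a shorter transcript. For Aldh1a7 it is chr19:20727557-20727806, minus strand, which covers the start of the gene.
Aldh1a1: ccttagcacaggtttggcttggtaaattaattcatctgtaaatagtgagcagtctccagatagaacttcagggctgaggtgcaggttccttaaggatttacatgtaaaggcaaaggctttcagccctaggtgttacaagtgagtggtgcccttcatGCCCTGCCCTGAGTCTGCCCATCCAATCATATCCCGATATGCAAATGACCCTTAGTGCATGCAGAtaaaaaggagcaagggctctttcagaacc
Aldh1a7: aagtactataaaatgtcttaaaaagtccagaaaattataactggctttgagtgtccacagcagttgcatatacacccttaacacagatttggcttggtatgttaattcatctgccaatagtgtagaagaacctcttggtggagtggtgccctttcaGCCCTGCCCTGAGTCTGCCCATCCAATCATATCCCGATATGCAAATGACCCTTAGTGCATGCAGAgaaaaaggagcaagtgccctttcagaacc
The shared run is 65 bases long, and 29 bases lie between it and either start. With the whole windows aligned and gaps left out, 185 of 228 bases were identical (81.1%). The window before the other RefSeq start of Aldh1a1 shared no run longer than 8 bases with that of Aldh1a7. By the same measure 158 of 207 bases of that pair were identical (76.3%). Despite the likeness of the genes, their annotated transcripts shared few exact stretches of read length (91 bases). Of the 1976 windows of that length in the Aldh1a7 transcript 15 also occurred in Aldh1a1, and none of the last 500, nearest the 3′ end. The reads themselves were not examined, and windows with mismatches or other transcript ends were not counted.

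Windows of 300 bases around the start were held for 12 starts of 8 of the genes, from RefSeq, Crabp2 having no entry. The motif AGGTCA, a half-site of retinoic acid receptors, occurred on either strand in none of the 12 and in 16.3% of 32851 mouse promoters, and AGTTCA occurred in none of the 12 and in 14.0% of all. GGGTCA was found in a promoter each of Aldh1a1, Aldh1a7 and Rbp4 (3 of 12, against 13.7% of all). In Aldh1a1 and Aldh1a7 it lies in the shared run printed above, where it reads as TGACCC. The occurrences in these paralogs are therefore not independent. TATAAA was found in a promoter each of Cyp26b1, Aldh1a7 and Rbp4 (3 of 12, against 13.6%). These counts are a description of the letters in these windows.

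The 9 genes differed in the groups of cells that held them, as the map of levels by cell group shows. Rbp4 and Lrat had their highest levels in stromal groups, Aldh1a1 in the late theca group, Aldh1a2 in the surface epithelium, and Crabp2 in antral and remodeling granulosa cells. Of all Aldh1a1 UMIs 65.4% fell in the late theca group, which held 3.05% of the cells. The 5 wk library carried much of this, and without it the share was 39.3%. Of all Aldh1a2 UMIs 39.9% fell in the surface epithelial-like cells, which were 0.666% of the cells. For Lrat, 67.5% of UMIs lay in the Cxcl12+ group (8.06% of the cells), and for Crabp2, 88.4% in granulosa-like cells (37.9%).

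**Figure D1:**
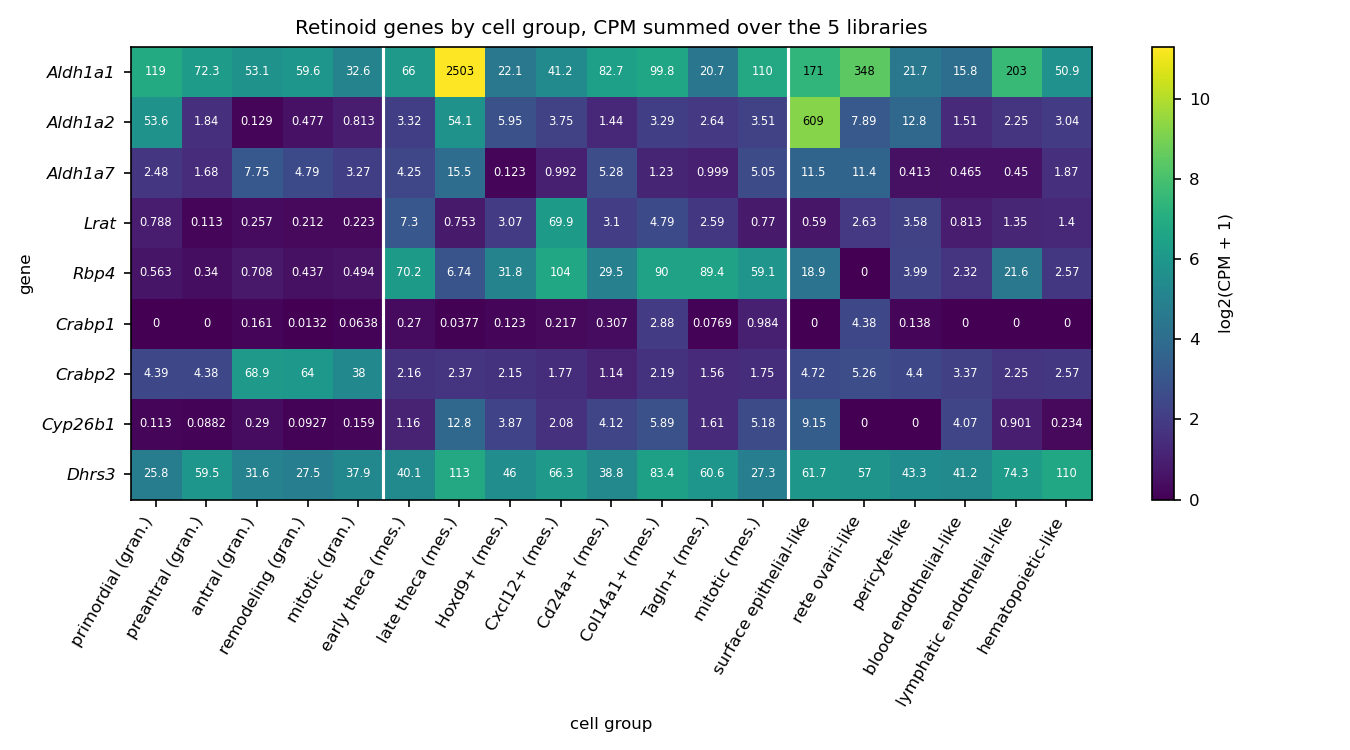
Level of each of the 9 genes (rows) in each named cell group (columns), with the CPM summed over the 5 libraries printed in each cell and coloured as log2(CPM + 1); gran. and mes. mark granulosa and mesenchymal groups. Aldh1a1 reached 2503 CPM in the late theca group, Aldh1a2 609 CPM in surface epithelial-like cells, and Lrat 69.9 CPM in the Cxcl12+ group.

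Rbp4, the plasma carrier of retinol (chr19:38116629-38125281, minus strand), was found mainly in stromal-like and smooth muscle-like cells. Stromal-like cells held 67.0% of its UMIs (29.0% of the cells). Smooth muscle-like cells held 24.1% (8.53% of the cells), a larger part for their number. The level of Rbp4 in stromal-like cells was 63.0 CPM (61.8 to 64.3) pooled, and 33.9, 88.0, 64.7, 63.7 and 77.9 CPM at 2, 3, 4, 5 and 6 wk. In granulosa-like cells the same libraries gave 0.456, 0.985, 1.39, 0.422 and 1.35 CPM. The 2 classes did not overlap, and Rbp4 was 63.9-fold lower in granulosa-like than in stromal-like cells (56.9 to 72.0). A UMI of Rbp4 was found in 27.7% of stromal-like cells (19.0% after thinning each cell to 5000 UMIs) and in 1.04% of granulosa-like cells, while the hematopoietic-like class, which should lack the gene, gave 1.62%. The median depths were 9732.5, 14874 and 6699 UMIs per cell, so the granulosa share was at the level of the background.

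Among the named mesenchymal groups Rbp4 was highest in the Cxcl12+ group at 104 CPM (100 to 107). The Col14a1+ group (52.4 to 108 CPM over the libraries) and the Tagln+ group (32.4 to 126 CPM) followed. The libraries of these 3 groups overlapped, as did those of each of the next groups in the order. In the early theca group Rbp4 stood at 31.1, 117, 80.2, 56.8 and 78.2 CPM from 2 to 6 wk, and in the late theca group at 6.97, 12.5, 12.1, 3.35 and 7.92 CPM. The late theca group was thus below the early theca group at every age, 10.4-fold over all libraries (8.92 to 12.2). Theca-like cells as a class were 12.8-fold below stromal-like cells (10.7 to 15.4), and surface epithelial-like cells 3.34-fold below (2.61 to 4.34), without overlap in either case. In the lymphatic endothelial-like cells at 4 wk 43 UMIs of Rbp4 gave 123 CPM, but a UMI was found in only 3 of the 228 cells of that class over all ages.

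Lrat, which esterifies retinol for storage (chr3:82892579-82903973, minus strand), was the member most narrowly placed within the stroma. In the Cxcl12+ group its level was 2.45, 5.76, 46.5, 99.2 and 146 CPM at 2, 3, 4, 5 and 6 wk, higher at each age than at the one before. The share of Cxcl12+ cells with a UMI went from 1.74% at 2 wk to 43.5% at 6 wk (1.08 to 33.0% when thinned). Pooled over ages it was 22.6% at a median of 7275 UMIs per cell, against 1.01% of hematopoietic-like cells at 6699.

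The difference between ages was found in each larger Cxcl12+ cluster. From 2 to 6 wk Lrat went from 0.772 to 189 CPM in the largest of these clusters, from 3.44 to 104 CPM in the second and from 2.72 to 163 CPM in the third. The clusters led by Lrat, Tmeff2 and Dio3 (the largest and the third) had Lrat among their leading genes although it was not used to build them. Other named mesenchymal groups were lower in every library. The early theca group, next in the pooled order of named groups, held 0.140, 0.783, 7.73, 12.6 and 18.2 CPM. The Col14a1+ group held 0.736, 2.66, 4.54, 7.14 and 29.6 CPM, and the Hoxd9+ group 1.26, 1.56, 1.70, 1.36 and 7.65 CPM. At 2 and 3 wk the Cxcl12+ level was near that reached by other groups later, so the ranges over ages overlapped.

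Over all libraries Lrat was 22.8-fold higher in the Cxcl12+ than in the Hoxd9+ group (17.2 to 30.8), and Rbp4 was 3.26-fold higher (2.97 to 3.58). Both were higher in 5 of 5 libraries. When the libraries were clustered without integration Rbp4 turned to a ratio of 0.723, and with the retinoid genes kept in the clustering Lrat was 10.5-fold and Rbp4 1.93-fold higher. No member was called under the rule of non-overlap (0 of 7 with enough UMIs, where 3.79% of all genes were called): the ranges of Lrat and Rbp4 over the libraries overlapped and the other members were less than 2-fold apart. The looser count called 2 of 7 (6.38% of all genes). The median log2 ratio of the 7 was 0.52, against -0.03 over all genes tested. Outside the mesenchyme Lrat was sparse: 0.272 CPM in granulosa-like cells, 66.1-fold below stromal-like cells without overlap (53.0 to 83.5; 41.8-fold without the 6 wk library), and 2 UMIs in the surface epithelial-like cells.

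**Figure D2:**
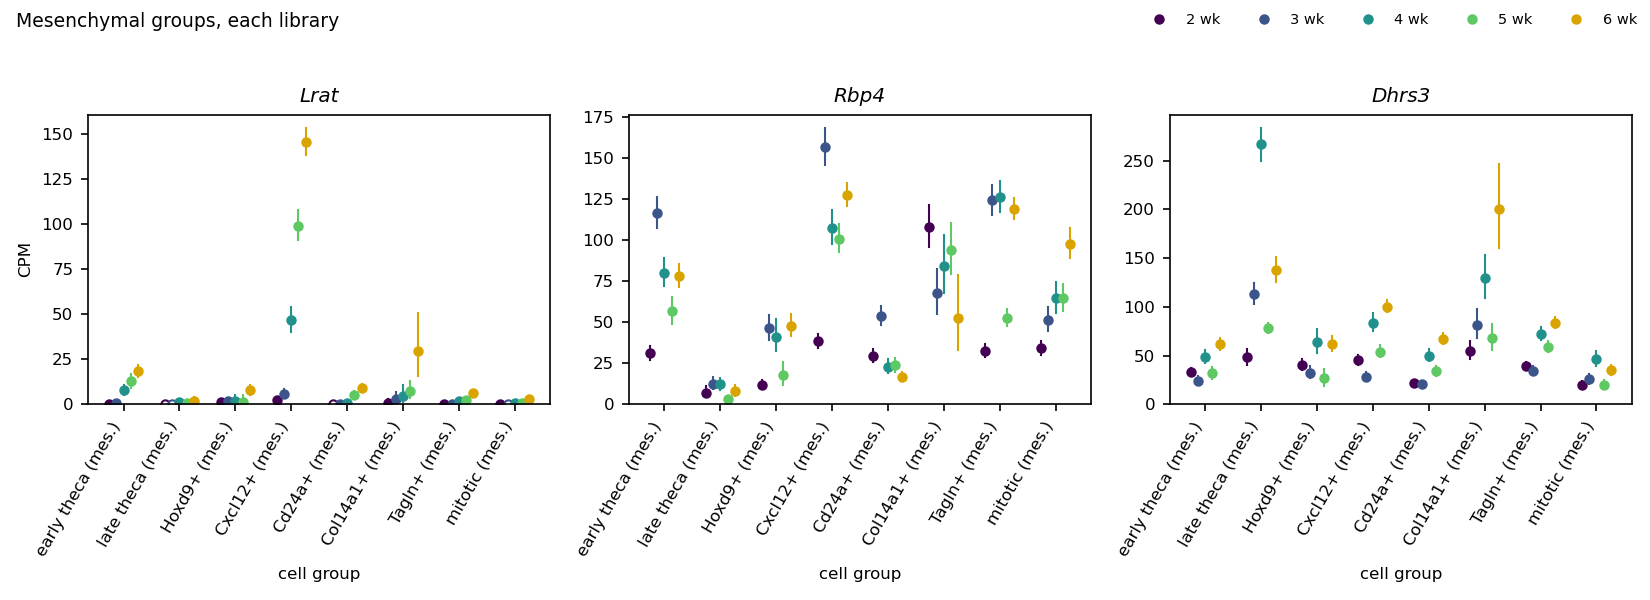
CPM of Lrat, Rbp4 and Dhrs3 in the mesenchymal groups, each point a library (colour, age in wk) and each bar its Poisson 95% interval, with open points where no UMI was counted; mes. marks mesenchymal groups. Lrat in the Cxcl12+ group was 2.45 CPM at 2 wk and 146 CPM at 6 wk, while the late theca group had the lowest Rbp4 of the groups in all 5 libraries.

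Between 2 and 6 wk stromal-like cells taken as a class differed at least 2-fold in 4 of the 8 members with enough UMIs (10.5% of all genes tested in that class were as far apart). Lrat was 61.2-fold higher at 6 wk (44.0 to 87.6), Rbp4 2.30-fold higher (2.16 to 2.45, but 1.53-fold without integration) and Dhrs3 2.19-fold higher (2.05 to 2.33), while Cyp26b1 was 4.36-fold lower (3.17 to 6.11). These intervals cover counting only and not the spread between animals. For Rbp4 the 2 wk library was the lowest of the 5 and for Lrat the 6 wk library was the highest. The Cxcl12+ group made up a larger share of the mesenchymal cells at 6 wk (1145 cells) than at 2 wk (691 cells), and its part in the class values was not tested.

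Dhrs3, a short-chain dehydrogenase that reduces retinal back to retinol (chr4:144892827-144928209, plus strand), was the most widely spread of the 9. Every named group held 25.8 CPM or more, and no group was set apart from its neighbour in the order without overlap. The late theca group was highest at 113 CPM (109 to 117), with 48.0, 114, 267, 78.2 and 138 CPM from 2 to 6 wk. Hematopoietic-like cells followed at 110 CPM (100 to 120) and the Col14a1+ group at 83.4 CPM.

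Among granulosa groups Dhrs3 stood highest in preantral cells at 59.5 CPM (57.8 to 61.3), with 34.7, 96.9, 46.2, 57.1 and 68.3 CPM from 2 to 6 wk, and lowest in primordial cells at 25.8 CPM, with 16.3, 38.3, 21.2, 26.9 and 38.6 CPM. Preantral cells lay above primordial cells in each library, although the ranges overlapped. The remodeling group went from 77.9 and 59.4 CPM at 2 and 3 wk to 11.3 CPM at 4 wk, then 27.9 and 29.8 CPM. That group changed in make-up with age: its Lox and Ghr cluster, with 4.81 CPM of Dhrs3, had no cell at 2 wk, 13 cells at 3 wk and 456 at 4 wk. Its part in the group's values was not tested. The antral group followed a like order, 60.2, 35.8, 18.9, 29.2 and 35.4 CPM.

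Aldh1a1, which oxidises retinal to retinoic acid, was highest in the theca. Its level in the late theca group was 1201, 1317, 1938, 3597 and 976 CPM from 2 to 6 wk, and 2503 CPM pooled. No other group overlapped with it, and the next in the order, the rete ovarii-like cells, held 298 and 447 CPM in the only libraries with 20 or more of these cells. A UMI was found in 97.4% of late theca cells (93.8% thinned, median 16764 UMIs), against 10.1% of hematopoietic-like cells (6.00% thinned, median 6699). The surface epithelial-like cells held 171 CPM (158 to 186), with a UMI in 50.8% of cells.

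The early theca group held 91.9, 58.9, 60.9, 58.2 and 49.2 CPM of Aldh1a1, so the late theca group was 37.9-fold higher (36.1 to 39.8) without overlap. Compared with stromal-like cells, theca-like cells were 37.0-fold higher (36.3 to 37.8). Without the 5 wk library these folds were 20.6 and 22.8, and without integration the first was 20.7. The 5 wk library held the highest theca value, 3703 CPM in theca-like cells against 1267 to 2166 CPM at other ages, and by far the most theca-like cells (577, against 106 to 248). In that library Aldh1a1 was also at its highest in some of the smaller classes outside the theca. Hematopoietic-like cells held 116 CPM against 9.50 to 39.8 CPM at other ages. Lymphatic endothelial-like cells held 391 CPM against 11.1 to 83.0 CPM. In granulosa-like and stromal-like cells the 2 wk library was the highest instead. The part of free RNA in the levels outside the theca was not tested.

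**Figure D3:**
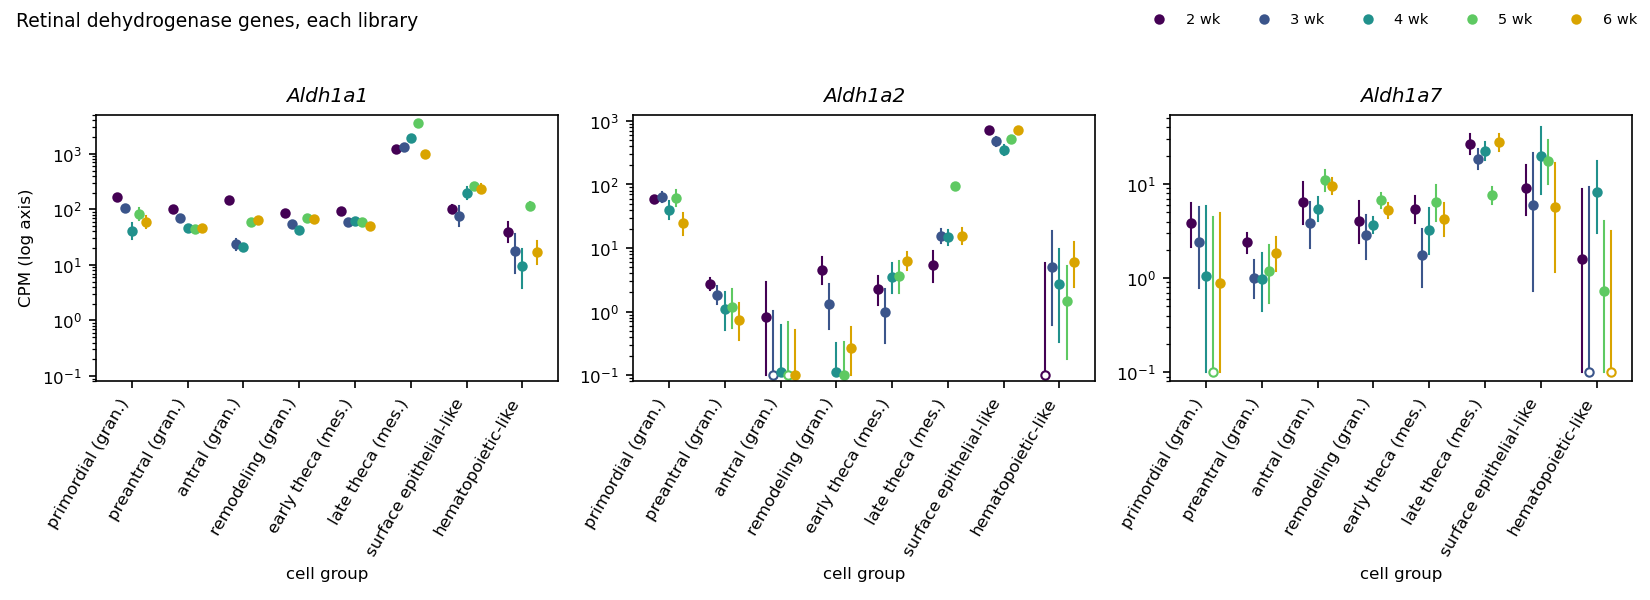
CPM (log axis) of the 3 Aldh1a genes in granulosa groups, theca groups, surface epithelial-like cells and hematopoietic-like cells, each point a library and each bar its Poisson 95% interval, with values under 0.1 drawn at 0.1 and open points where no UMI was counted. Aldh1a1 in the late theca group ranged from 976 to 3597 CPM and Aldh1a2 in surface epithelial-like cells from 352 to 728 CPM, above every other group shown.

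In granulosa-like cells Aldh1a1 was lower at 6 wk than at 2 wk, with 99.6, 50.9, 33.9, 52.1 and 49.6 CPM in order of age and a ratio of 0.498 (0.478 to 0.519). Without the cluster of dividing cells described above the levels at 2 and 6 wk were 103.6 and 55.1 CPM, and the ratio of 0.532 did not pass 2-fold. Nor did it pass without integration (0.501), with other scaling (0.501) or with the stricter cell filter (0.512). Primordial cells held the highest pooled level of the granulosa groups, 119 CPM, with 169, 106, 41.3, 81.9 and 59.7 CPM by age. The 2 wk value was the highest of the 5 ages in every granulosa group. In the antral group the cluster led by Cyp11a1, Lhcgr and Cyp19a1, genes of steroid synthesis and its control, held 111 CPM, while the Slc38a5 and Nap1l5 cluster held 15.9 CPM.

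Aldh1a2, the second retinal dehydrogenase (chr9:71215789-71296243, plus strand), was highest in the surface epithelium. Its level there was 716, 474, 352, 528 and 728 CPM from 2 to 6 wk, with a UMI in 89.1% of cells (86.9% thinned, median 8803 UMIs), against 2.22% of hematopoietic-like cells (median 6699). No other group overlapped with it. Stromal-like cells held 2.57 to 3.90 CPM, so the surface epithelial-like cells were 181-fold higher (165 to 200). Between 2 and 6 wk the epithelial level differed little, with a ratio of 1.02 (0.900 to 1.15).

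A further group with Aldh1a2 was the primordial granulosa group, which did not overlap with any group below it in the order. In primordial granulosa cells it stood at 58.6, 63.1, 40.2, 61.1 and 24.6 CPM from 2 to 6 wk, with a UMI in 32.2% of cells (21.1% thinned). The other granulosa groups were at 1.84 CPM (preantral), 0.813 CPM (mitotic), 0.477 CPM (remodeling) and 0.129 CPM (antral, 4 UMIs in 1857 cells). Antral cells were therefore 416-fold below primordial cells (162 to 1534), an interval set by those 4 UMIs. Aldh1a2 was among the genes that led the primordial cluster, with the interferon-inducible genes Ifi204, Ifi203 and Mndal, although it was left out when the cluster was built.

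The level of Aldh1a2 in theca-like cells rested on the 5 wk library. It was 9.35, 16.0, 15.9, 97.2 and 23.0 CPM from 2 to 6 wk, and a UMI was found in 7 of 106, 28 of 207, 34 of 248, 368 of 577 and 22 of 107 cells. All 5 values lay above the 2.57 to 3.90 CPM of stromal-like cells, and the pooled ratio was 18.2 (16.5 to 20.1), or 4.73 without the 5 wk library. The theca-like UMIs at 5 wk were spread over many cells, the 5 richest holding 7.32% of them. In the early theca group the range was 0.978 to 6.36 CPM, which reached the lowest late theca library (5.42 CPM at 2 wk), and the late theca group was higher in each library with a pooled ratio of 16.3 (13.1 to 20.5), or 4.10 without the 5 wk library.

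Aldh1a7, a rodent paralog of Aldh1a1 whose role in retinoid metabolism is less sure, was lower in count (2264 UMIs in all cells) but had its highest pooled level in the theca too. The late theca group held 26.7, 18.6, 22.6, 7.60 and 27.9 CPM from 2 to 6 wk, with a UMI in 15.6% of cells (6.49% thinned), against 0.606% of hematopoietic-like cells. The early theca group held 1.76 to 6.47 CPM, and the late theca group was 3.64-fold higher without overlap (2.95 to 4.54), and 6.04-fold without the 5 wk library. Surface epithelial-like cells held 5.69 to 19.7 CPM from 39 UMIs in all and overlapped with the late theca group. They were 3.05-fold above stromal-like cells (2.15 to 4.22).

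The 2 paralogs parted within the late theca group. Its larger cluster (874 cells), led by Cyp11a1, Cyp17a1 and Bpifb4, held 2073, 1984, 2711, 4093 and 1873 CPM of Aldh1a1 and 12.9, 11.3, 13.3, 4.35 and 17.3 CPM of Aldh1a7. Its smaller cluster (593 cells), with Cpa1 and Aldh1a7 among its leading genes, held 566, 774, 957, 1555 and 498 CPM of Aldh1a1 and 36.8, 24.6, 34.4, 20.9 and 33.5 CPM of Aldh1a7. In every library Aldh1a1 was higher in the larger cluster and Aldh1a7 in the smaller, with no overlap between the clusters for either gene. At 5 wk, when 478 of the 601 late theca cells lay in the larger cluster, Aldh1a7 was also lower within each cluster than at any other age.

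**Figure D4:**
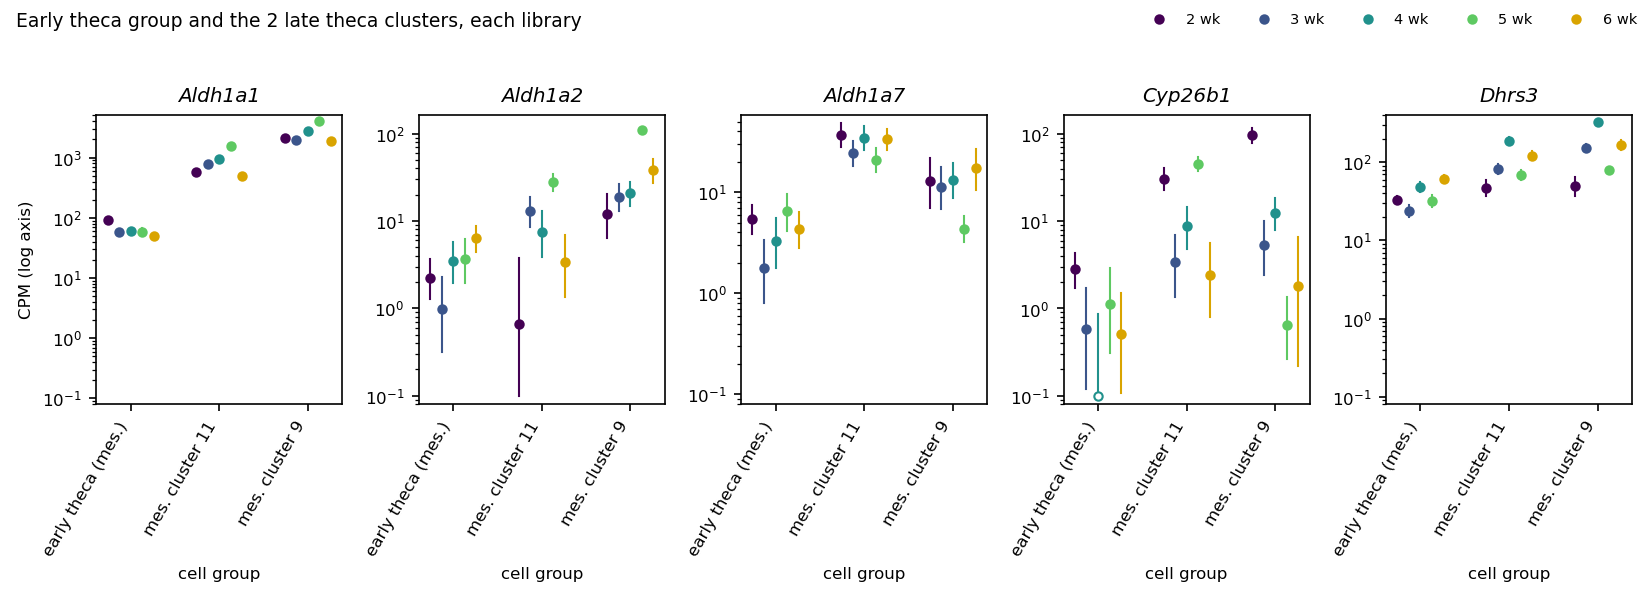
CPM (log axis) of 5 members in the early theca group and in the smaller (mes. cluster 11) and larger (mes. cluster 9) late theca clusters, each point a library and each bar its Poisson 95% interval, with the open point marking no UMI. Aldh1a1 was at 1873 CPM or more in the larger cluster and at 1555 CPM or less in the smaller, while Aldh1a7 was at 20.9 CPM or more in the smaller and at 17.3 CPM or less in the larger.

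In granulosa cells Aldh1a7 was highest in the antral group, with 6.51, 3.85, 5.48, 11.1 and 9.58 CPM from 2 to 6 wk. It was 3.13-fold above the primordial group (2.02 to 5.09), which held 0 to 3.82 CPM from 22 UMIs. The fold was 5.57 without the 2 wk library, and the call was lost at the lower resolution (2.24-fold), without integration (1.996-fold) and with the stricter cell filter (3.03-fold). As for Aldh1a1, the antral cluster led by Cyp11a1 and Lhcgr held more (13.9 CPM) than the Slc38a5 cluster (3.76 CPM). The remodeling group was lower than the antral group in 5 of 5 libraries, with a ratio of 0.618 (0.524 to 0.731) that did not reach the 2-fold limit.

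Crabp2, a cytosolic carrier of retinoic acid (chr3:87948666-87953376, plus strand), was highest in granulosa cells. It was 17.8-fold higher in granulosa-like than in stromal-like cells (16.0 to 19.9), without overlap, and 9.52-fold higher with overlap when the libraries were not integrated. Its level in granulosa-like cells was 5.43, 11.8, 25.2, 69.1 and 69.5 CPM from 2 to 6 wk, against 1.97, 1.18, 2.23, 3.14 and 2.27 CPM in stromal-like cells. The lowest granulosa library was above the highest stromal library, and the difference between the classes was larger at 5 and 6 wk.

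The level of Crabp2 differed between the stages. Antral cells held 21.6, 33.6, 48.7, 114 and 86.0 CPM of Crabp2 by age and remodeling cells 10.6, 13.5, 24.4, 90.3 and 113 CPM. Primordial cells held 2.80, 1.94, 6.35, 9.78 and 8.77 CPM and preantral cells 3.26, 2.51, 2.61, 9.76 and 7.78 CPM. The antral group was 15.7-fold above the primordial group (11.4 to 22.1), with no overlap, whereas primordial and preantral cells overlapped. A UMI was found in 43.5% of antral cells (22.4% thinned, median 16067 UMIs) and in 4.96% of preantral cells (1.77% thinned, median 14108), against 1.82% of hematopoietic-like cells (0.586% thinned, median 6699).

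In the preantral, antral and remodeling groups the values at 5 and 6 wk lay above those at 2, 3 and 4 wk. The primordial values had the same order, but on only 39 UMIs over all ages. Over all granulosa-like cells Crabp2 was 12.8-fold higher at 6 than at 2 wk (11.4 to 14.4), and the remodeling group held 299 of 3094 granulosa-like cells at 2 wk and 1417 of 3882 at 6 wk. The difference was also present within clusters: from 2 to 6 wk the remodeling cluster led by S100a6, Pamr1 and Agt went from 0 UMIs in 87 cells to 165 CPM, and the cluster led by Ntng1 and Adamts5 from 13.6 to 85.7 CPM. The step between 4 and 5 wk fell where the software version in the headers also changed, and age and version cannot be told apart. In stromal-like cells the same step was from 2.23 to 3.14 CPM.

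**Figure D5:**
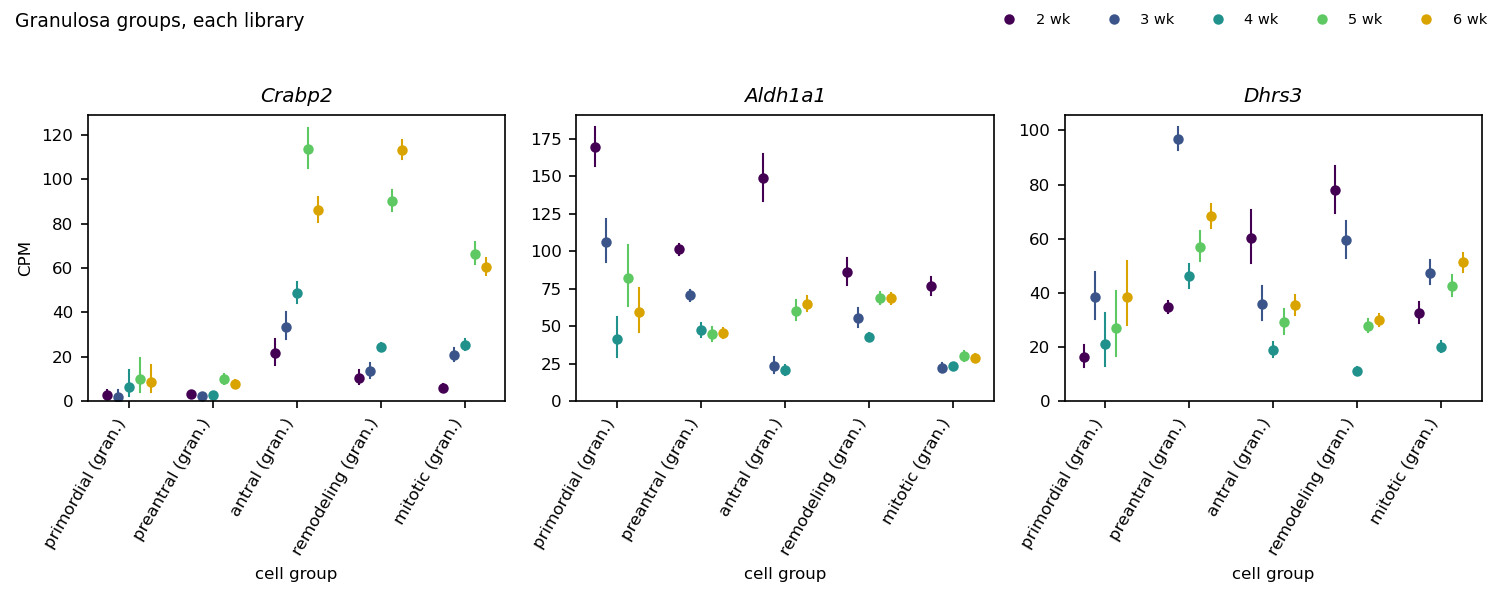
CPM of Crabp2, Aldh1a1 and Dhrs3 in the granulosa groups, each point a library (colour, age in wk) and each bar its Poisson 95% interval. Crabp2 in antral and remodeling cells was 86.0 CPM or more at 5 and 6 wk and 48.7 CPM or less at 2 to 4 wk, while primordial and preantral cells held less than 10 CPM in every library.

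Crabp1, the other carrier (chr9:54764748-54773110, plus strand), was nearly absent, with 139 UMIs in all 48163 cells. Of these 74 lay in stromal-like cells, 30, 26, 12, 4 and 2 from 2 to 6 wk, and 51 in granulosa-like cells. Of the 51 granulosa-like UMIs 40 came from 3 cells at 5 and 6 wk that also held UMIs of at least 3 germ cell markers, so most of this count lay in cells with oocyte transcripts. Without the dividing cluster 6 granulosa-like UMIs remained. The Col14a1+ group held 21 UMIs (2.88 CPM), all at 2 to 4 wk. In the surface epithelial-like cells no UMI was found, and the 3 UMIs that a count of 0 allows would be 0.886 CPM, above the stromal-like level of 0.467 CPM, so a difference was not detectable at this depth.

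Cyp26b1, which degrades retinoic acid (chr6:84571414-84593908, minus strand), was counted 1075 times. Theca-like cells held 31.8% of its UMIs (2.58% of the cells) and stromal-like cells 46.0% (29.0% of the cells). In theca-like cells Cyp26b1 stood at 95.1, 4.79, 13.5, 6.89 and 3.29 CPM from 2 to 6 wk. The 2 wk value came from 183 UMIs in 27 of 106 cells, the 5 richest cells holding 56.3% of them. In theca-like cells Cyp26b1 was 13.8-fold lower at 5 than at 2 wk (10.7 to 17.9). The size of this fold depended on the cells taken. It was 113-fold with the retinoid genes kept in the clustering and 7.77-fold with the stricter cell filter.

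The pooled theca value therefore rested on few cells. In the late theca group 5.45% of cells held a UMI (2.81% thinned), against 0.202% of hematopoietic-like cells. At 5 wk its smaller cluster held 119 UMIs of Cyp26b1 (45.3 CPM), 67.2% of them in 5 cells, while the larger cluster held 7 UMIs in 478 cells. Granulosa-like cells were 17.2-fold below stromal-like cells without overlap (13.0 to 23.2), at 0.181 against 3.12 CPM. Surface epithelial-like cells held 31 UMIs in all, 19 of them at 2 wk. That was 2.88% of the gene's UMIs in 0.666% of the cells, a larger part for their number than in stromal-like cells. Blood endothelial-like cells held 3.26% of the UMIs in 1.48% of the cells.

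Counted over the 9 members, the contrast of surface epithelial-like with stromal-like cells called 4 of 9 (20.4% of all genes tested): Aldh1a2 and Aldh1a7 were higher, Rbp4 was lower, and Crabp1 was called lower on the strength of no UMI, as above. The Crabp1 call was lost without the 2 wk or the 3 wk library, that of Aldh1a7 without integration and that of Rbp4 with the stricter cell filter. The looser count took in 6 of 9 (24.6%), adding Aldh1a1, 2.26-fold higher (2.08 to 2.46), and Lrat, 30.4-fold lower on 2 UMIs (8.42 to 252). The contrast of theca-like with stromal-like cells called 4 of 9 (16.6%), all 3 Aldh1a genes higher and Rbp4 lower. The Aldh1a7 call was lost (1.91-fold) when the retinoid genes were kept in the clustering. Leaving out the 2 wk library raised the count to 6 of 9. The looser count took in 8 of 9 (22.9%). It added Cyp26b1, 4.55-fold higher (1.94-fold with the retinoid genes kept in the clustering), and Dhrs3, 2.59-fold higher. It also added Lrat, 28.9-fold lower, and Crabp1, lower on 1 UMI (3.84-fold higher without integration). The median log2 ratio of the members was 0.88 in the first contrast (0.12 over all genes) and 1.35 in the second (-0.06).

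Granulosa-like against stromal-like cells called 4 of 9 under both rules (26.6% and 31.4% of all genes), Crabp2 higher and Lrat, Rbp4 and Cyp26b1 lower. Without integration this contrast called 2 of 9, Lrat and Crabp2 being lost to overlap. Antral against primordial granulosa cells called 3 of the 5 members with enough UMIs under both rules (12.5% and 17.5%), namely Aldh1a7, Crabp2 and Aldh1a2. Remodeling against antral cells called 0 of 5 under either rule (2.9% and 7.95%), with Crabp2 at a ratio of 0.930, Aldh1a1 at 1.12 and Dhrs3 at 0.871. The largest remodeling cluster (2422 cells) had a mean scaled level of 1.04 for the remodeling and 0.835 for the antral markers. The part of this likeness in the contrast was not tested.

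Late against early theca called 3 of 8 (10.9%), Aldh1a1 and Aldh1a7 higher and Rbp4 lower, and 7 of 8 under the looser count (16.8%). The looser count added Aldh1a2 as above, Cyp26b1, higher with a 95% interval of the ratio from 7.58 to 16.6, Dhrs3, 2.82-fold higher (2.63 to 3.03), and Lrat, 9.69-fold lower (6.10 to 16.2). The direction was the same in all 5 libraries for each of the 7. With the retinoid genes kept in the clustering Cyp26b1 was 5.90-fold higher. Leaving out the 2 wk library raised the strict count to 6 of 8, and leaving out the 6 wk library raised it to 5. The Aldh1a7 call rested on the smaller late theca cluster. With the larger cluster alone Aldh1a7 was 1.78-fold above the early theca group and was not called. With the smaller cluster alone it was 6.81-fold above, and Aldh1a1 was 14.0-fold and Aldh1a2 3.67-fold above. The smaller cluster had a mean scaled level of 1.80 for the late and 0.855 for the early theca markers. The study counts a theca cluster of low steroidogenic gene levels among its early theca cells, so its division of the theca may differ from this one.

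By age, granulosa-like cells at 6 against 2 wk differed at least 2-fold in 4 of 6 members (13.6% of all genes), Crabp2 and Rbp4 higher and Aldh1a1 and Aldh1a2 lower, and in 3 members without the dividing cluster, where Aldh1a1 did not pass. Rbp4 there was 2.95-fold higher (1.89 to 4.77), but at 1.35 CPM or less was at the background level. Aldh1a2 was 10.5-fold lower (7.82 to 14.3), and primordial cells, which held most of it, fell from 317 of 3094 granulosa-like cells to 83 of 3882. Within primordial cells its level was also lower at 6 wk than at 2 wk, as given above. The part of either in the class ratio was not tested. Theca-like cells at 5 against 2 wk differed in 4 of 7 members (17%): Aldh1a1 was 2.35-fold higher (2.26 to 2.43), Aldh1a2 10.4-fold higher (6.55 to 17.6), Aldh1a7 at a ratio of 0.491 (0.317 to 0.785), and Cyp26b1 lower. Without integration Aldh1a1 (1.97) and Aldh1a7 (0.635) did not pass 2-fold, nor did Aldh1a7 with the stricter cell filter (0.557) or with other scaling (0.552). Surface epithelial-like cells at 6 against 2 wk differed in 1 of 3 members (8.57%), Aldh1a1, which was 2.29-fold higher (1.79 to 2.95).

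A wider list of 55 retinoid genes, of which 54 were counted, gives the setting of the 9. Granulosa-like cells held more Stra6, the cell-surface receptor for Rbp4, than stromal-like cells (28.0-fold). In that contrast 15 of 35 were called (26.6% of all genes tested), 5 higher and 10 lower. Those higher also included Cd36 (17.4-fold), Cyp2s1 (11.1-fold), Rec8 (5.15-fold) and Pnpla2 (2.08-fold). Among those lower were Tgm2 (45.5-fold), Adh1 (29.6), Rarb (25.3), Rxrg (11.3), Aldh1a3 (7.96), Rarres2 (5.35), Rdh10 (3.50) and Rdh5 (2.01). In this contrast of classes Rdh10, which makes retinal from retinol, and Adh1 were on the stromal side with Lrat and Rbp4. By group they differed from these: primordial granulosa cells held 24.0 CPM of Rdh10 against 20.5 CPM in stromal-like cells. Within the mesenchyme Rdh10 was at 15.2 CPM in the Cxcl12+ and 40.6 CPM in the Hoxd9+ group. Adh1 was at 11.5 CPM in the Cxcl12+ and 188 CPM in the Col14a1+ group.

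Surface epithelial-like cells held 7 of 34 at a higher and 3 at a lower level than stromal-like cells (20.4% of all genes were called). Stra6 was 36.3-fold higher, Rec8 20.4-fold, Cyp2s1 15.5-fold, Fabp5 5.39-fold, Tgm2 2.69-fold, Lipe 2.20-fold and Rarres2 2.16-fold, while Adh1, among those lower, was 20.7-fold lower on 2 UMIs. Theca-like against stromal-like cells called 7 of 33 (16.6% of all genes), 3 higher and 4 lower. Higher were Rec8 (8.39-fold), Lipe (3.15-fold) and Fabp5 (2.81-fold). Lower were Rarres2 (28.8-fold), Rarb (16.4-fold on 1 UMI), Tgm2 (4.87-fold) and Rdh12 (no UMI). None of these genes was used to draw the groups.

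Among stages, antral against primordial cells called 6 of 26 of the list (12.5% of all genes). Fabp5 (19.4-fold), Cd36 (10.1-fold) and Cyp2s1 (3.07-fold) were higher, and 3 were lower, among them Rdh10 (5.28-fold) and Stra6 (3.57-fold). Remodeling against antral cells called 0 of 29 (2.9% of all genes), with 5 under the looser count (7.95%). Among these 5, Aldh1a3 (9.05-fold) and Tgm2 (3.16-fold) were higher, and Stra6 (3.42-fold) and Rec8 (2.73-fold) lower. Late against early theca called 3 of 28 (10.9% of all genes), Fabp5 higher (3.97-fold) and Rarres2 (13.8-fold) and Tgm2 (4.38-fold) lower. Cxcl12+ against Hoxd9+ cells called 2 of 27 (3.79% of all genes), Adh1 higher (15.7-fold) and Cyp2s1 lower (2.62-fold).

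Of the receptors, Rarb (191 UMIs) and Rxrg (96 UMIs) were rare, with 3.29 and 1.64 CPM in the Col14a1+ group and 0.681 and 0.303 CPM in stromal-like cells. Rara stood at 34.7 CPM in primordial, 43.0 in preantral, 15.0 in antral and 12.4 in remodeling cells, and Rarg in the opposite order at 3.38, 2.48, 14.9 and 29.4 CPM. Neither was called between antral and primordial cells under the rule of non-overlap, but Rarg was 4.40-fold higher and Rara 2.31-fold lower in antral cells with the same direction in 5 of 5 libraries. Rxra was at 9.92 CPM in granulosa-like and 17.9 CPM in stromal-like cells, and Rxrb at 39.5 and 28.4 CPM.

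By age, 7 of 30 list genes differed in granulosa-like cells at 6 against 2 wk (13.6% of all genes). Rarg was 17.0-fold higher (13.3 to 22.0, from 1.22 to 20.7 CPM), and Rara 2.61-fold lower (from 46.9 to 18.0 CPM). Rarres2 (6.42-fold), Cd36 (6.08-fold), Fabp5 (3.84-fold) and Dgat2 (3.81-fold) were also higher and Rec8 (2.46-fold) lower. Preantral cells were 1663 of 3094 granulosa-like cells at 2 wk and 786 of 3882 at 6 wk, and remodeling cells 299 and 1417. Rarg and Rara differed between these groups, as given above. The part of this change in make-up in the age ratios was not tested. Stromal-like cells differed in 4 of 29 (10.5%), Rarres2 (2.53-fold) and Rarg (2.22-fold) higher and Adh1 (3.16-fold) and Dgat2 (2.93-fold) lower at 6 wk. Theca-like cells at 5 against 2 wk differed in 5 of 25 (17%), among them Adh1 (17.2-fold), Cd36 (8.79-fold) and Lipe (3.53-fold) higher and Tgm2 (3.34-fold) lower. Surface epithelial-like cells differed in 2 of 14 (8.57%), Stra6 (4.57-fold) and Rdh10 (2.19-fold) lower at 6 wk.

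Genes with a pattern like that of each member were sought over 91 points (a group in a library, at least 30 cells) by Pearson correlation of log2(CPM + 1) among 12171 genes. The points share libraries, and groups were drawn partly with the genes named here, so these values are descriptions. Aldh1a1 was most like Fam213a (0.82), Me1 (0.75) and Bpifb5 (0.73), and Aldh1a7 like Fam136a (0.73), Me1 (0.72) and Gcsh (0.71), Me1 being malic enzyme. Aldh1a2 was most like Lgals2 (0.78), Lgr5 (0.76) and Tm4sf5 (0.75). Among the genes most like Rbp4 were Lum (0.88) and Col1a1 (0.88), and among those most like Lrat were Abca8a (0.66) and Gm29683 (0.65).

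Crabp2 was most like Nap1l5 (0.82), Lrrc2 (0.82) and Psma2 (0.82), the first an antral marker. The remaining members had weaker likenesses, Cyp26b1 with Zfp57 (0.65), Bnc2 (0.64) and Sdk1 (0.64), Dhrs3 with Ctsb (0.56), Abca1 (0.52) and AI413582 (0.50), and the sparse Crabp1 with 1500015O10Rik (0.55) and Entpd5 (0.54). Among pairs of members the highest correlation was that of Aldh1a1 with Aldh1a7 (0.67), followed by Lrat with Rbp4 (0.48), and the lowest was that of Rbp4 with Crabp2 (-0.46).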

How the data were processed

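The deposited files hold raw UMI counts per gene and cell, which the authors made from 10x 3′ v3.1 libraries. The submitters' processing notes name Cell Ranger 3.1.0, Seurat 4.1.0 and mm10, while the matrix headers give 3.1.0 for 2 to 4 wk and 6.0.1 for 5 and 6 wk. All 48163 deposited cells entered the clustering. Libraries were integrated in Seurat 5.3.0 (R 4.3.3) with the steps of the study's methods (2000 variable genes, 50 principal components computed and 30 used, 20 neighbours, resolution 1), without the members and the list of retinoid genes. Granulosa-like and mesenchymal cells were clustered again in the same way.

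In the first clustering a cluster took the type with the largest share of its fixed markers detected, and mean scaled level only broke ties. In the second clustering the highest mean scaled level gave the name. The first-clustering cluster of 2337 dividing cells thus was named granulosa-like, although its mean scaled level was 4.54 for germ cell and 1.19 for granulosa markers. A cluster stayed unnamed with under 3 detected markers, few cells, few UMIs or many doublets. It also stayed unnamed with nearly all its cells from 1 library, or where markers of another type led it. The limits for this were set after the clusters were seen, as was the joining of primary and secondary granulosa cells. Without integration the rule on 1 library left unnamed, among others, clusters of 2837 cells with stromal, 1204 with primary, 1142 with remodeling and 521 with late theca markers highest. The values without integration therefore also rest on a different set of cells. Doublets were marked with Scrublet (scanpy 1.11.5) and kept. In every group counts were summed per library and scaled to CPM, with exact Poisson intervals for levels, exact conditional intervals for ratios and Clopper-Pearson intervals for shares, all at 95%. Shares were also computed after thinning to 5000 UMIs, leaving out shallower cells. The counting code was checked on simulated counts: for granulosa-like against stromal-like cells all genes changed 3-fold and none changed 1.5-fold were called. Python 3.11.15, numpy 2.4.6, scipy 1.17.1, pandas 2.3.3, matplotlib 3.10.9 and Biopython 1.88 were used.

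The members, the marker lists and the retinoid list were chosen with earlier results of these data known. All 9 members are named, with the 3 genes most like each, the nuclear receptors of the list and the list genes past 2-fold in a contrast, except that some of these genes are not reported here. The alternatives tried were doublets left out, a stricter cell filter (1000 genes or more and under 10% mitochondrial UMIs), another resolution, no integration, retinoid genes kept in the clustering, other scaling, no UMI minimum, a 1.5-fold limit and each library left out. Added after the data were seen were the looser count within libraries, each late theca cluster alone, and the cluster with germ cell genes left out.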

Additional observations from a re-analysis of the deposited data

Results flagged for a closer look

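Aldh1a1 moved in opposite directions with age in the granulosa and the surface epithelium. The ratio of 6 wk to 2 wk was 0.498 in granulosa-like cells, from 99.6 to 49.6 CPM, and 2.29 in surface epithelial-like cells, from 103 to 237 CPM. It was singled out because the 6 wk library lay below the 2 wk library in the first class and above it in the second. The other ages did not follow one direction: the surface epithelial-like level was 103, 77.5, 200.1, 262 and 237 CPM from 2 to 6 wk, and the granulosa-like level was 33.9 CPM at 4 wk and 52.1 CPM at 5 wk. Without the granulosa-like cluster that holds germ cell genes in few of its cells the first ratio was 0.532, short of 2-fold. With 1 library per age the difference between the classes was not tested. The surface epithelial value rests on 108 cells at 2 wk and 65 cells at 6 wk.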

How the results depend on the processing

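With 1 library per age the spread between animals is unknown, and values behind few UMIs (Crabp1 throughout, Lrat outside the stroma, Aldh1a2 in antral cells, Cyp26b1 outside the theca) are limited by depth. Libraries left out in turn gave 3 to 6 members for late against early theca, with 6 without 2 wk and 5 without 6 wk, 4 to 6 for theca-like against stromal-like cells, with 6 without 2 wk, 3 to 5 for surface epithelial-like against stromal-like cells, and 0 to 1 for Cxcl12+ against Hoxd9+ cells, with 1 without 2 wk or without 6 wk. Without integration the count was 2 for granulosa-like against stromal-like cells, 1 for remodeling against antral cells, 2 for Cxcl12+ against Hoxd9+ cells and 2 for theca-like cells at 5 against 2 wk. With no UMI minimum it was 7 for granulosa-like and 3 for surface epithelial-like cells at 6 against 2 wk, since more members entered. The 1.5-fold limit gave 1 for Cxcl12+ against Hoxd9+ cells. The looser count within libraries, added after the data were seen, gave 8 for theca-like against stromal-like cells, 7 for late against early theca and 2 for Cxcl12+ against Hoxd9+ cells. Leaving out the granulosa-like cluster with germ cell genes, also added after the data were seen, gave 3 members for granulosa-like cells at 6 against 2 wk, where Aldh1a1 (ratio 0.532) no longer passed 2-fold. The cause of the other differences was not tested. Of 1012 values of single members 20 lost and 39 gained a call, and 27 lay on the other side of a ratio of 1. Of those 27, 2 had been past 2-fold, both without integration, Rbp4 in Cxcl12+ against Hoxd9+ cells (0.723) and Crabp1 in theca-like against stromal-like cells (3.84). None of the 27 had been called by the rule of non-overlap. Ages could not be paired, since each has 1 library. Groups of cells came from the same libraries, but the rule of non-overlap compared their ranges over all ages. Only the looser count kept the pairing within each library, and by direction alone.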
